A study of Macaca mulatta with 20 samples.

Results

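ELF5, TMPRSS7, ANKRD22 and MFSD2A are 4 genes whose messenger RNA was high in the rhesus corpus luteum after 1 day of human chorionic gonadotropin (hCG) and low again on the later days of treatment. They are 4 of 14132 genes named on the array and were read through all 8 probe sets that carry one of these symbols alone, of 52707 probe sets tested. They were chosen by their signals in these same arrays: high in the group collected after 1 day of hCG, and near the untreated signal on the later days. Their levels in the 5 groups are therefore given as a description, with no test.

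There were 20 samples of corpora lutea from female rhesus macaques, each hybridised to 1 Affymetrix rhesus array, in 5 groups of 4. The untreated group was collected on luteal day 10 without hCG. The other 4 groups received hCG from luteal day 9, as 2 intramuscular injections per day, to imitate the hormone of early pregnancy. The scale held 9 rising doses, the lowest 15 IU and the highest 2880 IU, and a group collected earlier had only its first part. Collection on luteal days 10, 12, 15 and 18 followed 1 day, 3 days, 6 days and 9 days of injections, and the groups are called hCG day 10, 12, 15 and 18. Only hCG day 10 has an untreated group of the same luteal day, so that on later days the luteal day, the time under hCG and the dose went up together and cannot be told apart. Whether the 4 samples of a group are 4 animals is not stated in the labels, and p-values therefore cover the spread among these samples alone, which may be technical.

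After ovulation the emptied follicle turns into the corpus luteum, an endocrine gland whose main product is progesterone. Chorionic gonadotropin, the hormone of the implanting embryo, binds the LH receptor of luteal cells and raises cyclic AMP, which is known to switch many genes on for a short time and others for longer. The 4 genes belong to different families. ELF5 is an ETS family transcription factor known from glandular epithelia, where it acts downstream of the prolactin receptor in the mammary gland, and from trophoblast. TMPRSS7 is a serine protease anchored in the cell membrane, ANKRD22 is an ankyrin repeat protein known as interferon-inducible in myeloid cells of the blood, and MFSD2A carries lysophospholipids with long polyunsaturated fatty acids, such as docosahexaenoic acid, into cells.

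Values are signals in linear intensity units, scaled by the authors to a common level on every array. Differences are on the log2 scale of the signal + 16, with the standard error (SE) of 1 model fitted to all 20 arrays, which understates the change of dim probe sets. A gene's leading probe set is the one with the highest mean log2 signal over the arrays. The median signal of an array lay between 31.6 and 46.4, so that a signal of 16 or less, which 28.7% to 36.5% of probe sets had on an array, was dim. In bulk tissue, a change in the number of cells of a type and a change in the RNA per cell cannot be told apart. On principal component 3 of all probe sets, 3 arrays stood apart from the rest, namely replicate 2 of the untreated group, replicate 1 of hCG day 12 and replicate 2 of hCG day 15. Values without them are given where they move a result.

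ELF5 had a mean signal of 541 ± 319 (SD, n = 4) on hCG day 10 and of 51.4 ± 30.7 (SD, n = 4) without treatment in its leading probe set, MmugDNA.23160.1.S1_at. The 4 hCG day 10 arrays read 702, 125, 479 and 859 for replicates 1 to 4, and the 4 untreated arrays read 85.6, 12.8, 45.1 and 62.1. Every hCG day 10 array lay above every untreated array, but replicate 2 of hCG day 10 was far below the other three and only just above hCG day 12 replicate 2. The log2 difference was 2.90 ± 0.51 (SE), or 7.49-fold, and 2.54 without untreated replicate 2, the lowest untreated array.

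On hCG day 12 ELF5 read 28.2, 119, 11.3 and 62.5, on hCG day 15 it read 24.1, 26.2, 43.9 and 16.2, and on hCG day 18 it read 42.8, 35.4, 25.4 and 47.7. These 12 arrays overlapped with the untreated arrays in each group. On hCG day 15 the overlap rested on untreated replicate 2 alone, which read 12.8 and was among the arrays that stood apart. The other untreated arrays, from 45.1 to 85.6, lay above all hCG day 15 arrays. The log2 differences from untreated were -0.03, -0.52 and -0.20 (SE 0.51 each) on hCG days 12, 15 and 18. Untreated replicate 2 lay 1.09 below its group mean on the log2 scale, so these differences would be more negative without it. From hCG day 10 to hCG day 12 the difference was -2.94 ± 0.51, and the mean of hCG day 12 was 10.2% of that of hCG day 10. Ordered by level, hCG day 10 stood above the rest by more than the larger group SD, and the 4 other groups could not be ordered, since each gap between neighbours was smaller than that SD.

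The other ELF5 probe set, MmugDNA.19634.1.S1_at, was dimmer and had the same order of the hCG day 10 arrays. It read 99.1, 10.4, 61.7 and 129 on hCG day 10 against 10.7, 1.54, 2.63 and 5.26 without treatment. Replicate 2 of hCG day 10 overlapped with the untreated arrays here. All 16 arrays of the other groups were under 16, so that no level can be read for ELF5 from this probe set outside hCG day 10, and the log2 difference of 1.88 ± 0.33 depends on the constant added.

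TMPRSS7 had a mean signal of 409 ± 157 (SD, n = 4) on hCG day 10 and of 56.9 ± 47.2 (SD, n = 4) without treatment in its leading probe set, MmuSTS.4118.1.S1_s_at. The hCG day 10 arrays read 326, 232, 507 and 571, and the untreated arrays read 19.3, 126, 43.9 and 38.6. The groups did not overlap, and untreated replicate 2, among the arrays that stood apart, was the highest untreated array. The log2 difference was 2.66 ± 0.45, or 6.32-fold, and 3.04 without untreated replicate 2.

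The mean of TMPRSS7 was lower on each later collection day. It read 57.9, 80.1, 2.48 and 23.8 on hCG day 12, 19.1, 28.6, 11.5 and 5.05 on hCG day 15, and 7.49, 13.1, 8.77 and 1.74 on hCG day 18. On hCG day 18 all 4 arrays were under 16 and below every untreated array. The log2 differences from untreated were -0.41, -1.04 and -1.44 (SE 0.45 each) on hCG days 12, 15 and 18. Untreated replicate 2 lay 1.16 above its group mean on the log2 scale, so these differences would be smaller in size without it. The step from hCG day 10 to hCG day 12 was -3.07 ± 0.45. No gap between neighbouring groups below hCG day 10 was larger than the group SD, so that the stepwise order of the means is not resolved by these arrays.

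The other TMPRSS7 probe set, MmunewRS.111.1.S1_at, gave the same picture. It read 189, 187, 277 and 404 on hCG day 10 and 8.33, 103, 19.9 and 11.8 without treatment, a log2 difference of 2.70 ± 0.41. It then read 43.5, 56.3, 6.62 and 21.2 on hCG day 12 and was under 16 on every array of hCG days 15 and 18. Untreated replicate 2 was again the highest untreated array, and here the hCG day 18 arrays, from 1.00 to 10.3, overlapped with the untreated arrays. Differences from untreated were 0.08, -0.70 and -0.88 (SE 0.41 each) on hCG days 12, 15 and 18.

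ANKRD22 had a mean signal of 341 ± 186 (SD, n = 4) on hCG day 10 and of 68.4 ± 32.4 (SD, n = 4) without treatment in its leading probe set, MmugDNA.3988.1.S1_at. The hCG day 10 arrays read 364, 126, 296 and 576, and the untreated arrays read 113, 40.1, 48.9 and 71.8. The groups did not overlap, although hCG day 10 replicate 2 was close to untreated replicate 1. The log2 difference was 1.98 ± 0.33, or 3.94-fold.

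On the later days ANKRD22 lay below the untreated signal and not at it. It read 37.7, 29.1, 14.3 and 23.6 on hCG day 12, 19.5, 21.9, 7.30 and 26.2 on hCG day 15, and 24.4, 24.0, 22.3 and 21.5 on hCG day 18. In each of the 3 groups all 4 arrays were below all 4 untreated arrays. The log2 differences from untreated were -0.96, -1.24 and -1.04 (SE 0.33 each), and the gap of 0.96 between untreated and hCG day 12 was larger than the larger group SD of 0.53. From hCG day 10 to hCG day 12 the difference was -2.94 ± 0.33, to 7.69% of the hCG day 10 mean.

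ANKRD22 has 2 more probe sets, of which 1 responded. MmugDNA.11765.1.S1_at read 403, 196, 365 and 673 on hCG day 10 and 97.0, 72.2, 16.7 and 44.8 without treatment, a log2 difference of 2.55 ± 0.52. On hCG day 12 it read 69.0, 23.6, 0.948 and 21.3, on hCG day 15 37.2, 49.8, 4.21 and 5.91, and on hCG day 18 11.5, 9.47, 7.57 and 56.0, with a wide spread in each group. Its later differences from untreated were -0.81, -0.92 and -1.02 (SE 0.52 each), in the direction of the leading probe set, but its arrays overlapped with the untreated ones on all 3 later days. MmugDNA.42620.1.S1_at was dim, with hCG day 10 signals of 17.5, 1.49, 2.63 and 2.40 and untreated signals of 13.1, 6.40, 2.31 and 13.2. It showed no peak, with a difference of -0.20 ± 0.20, and 19 of its 20 arrays were under 16.

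MFSD2A had a mean signal of 303 ± 95.6 (SD, n = 4) on hCG day 10 and of 46.6 ± 18.1 (SD, n = 4) without treatment in its only probe set, MmugDNA.37005.1.S1_at. The hCG day 10 arrays read 201, 272, 309 and 429, and the untreated arrays read 29.2, 66.6, 57.1 and 33.5. The groups did not overlap and the lowest hCG day 10 array was well clear of the highest untreated one. The log2 difference was 2.35 ± 0.28, or 5.09-fold, with the smallest SE of the 4 genes.

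MFSD2A read 32.2, 59.7, 38.3 and 35.2 on hCG day 12, 15.2, 22.7, 35.6 and 30.8 on hCG day 15, and 3.42, 29.5, 32.3 and 20.2 on hCG day 18. Each of these groups overlapped with the untreated arrays, and hCG day 18 replicate 1 was the lowest of all. Differences from untreated were -0.10, -0.55 and -0.78 (SE 0.28 each), and the step from hCG day 10 to hCG day 12 was -2.45 ± 0.28. In the order of levels, the gap of 0.45 between hCG days 12 and 15 was larger than the group SD of 0.32, and the other gaps below hCG day 10 were not.

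**Figure D1:**
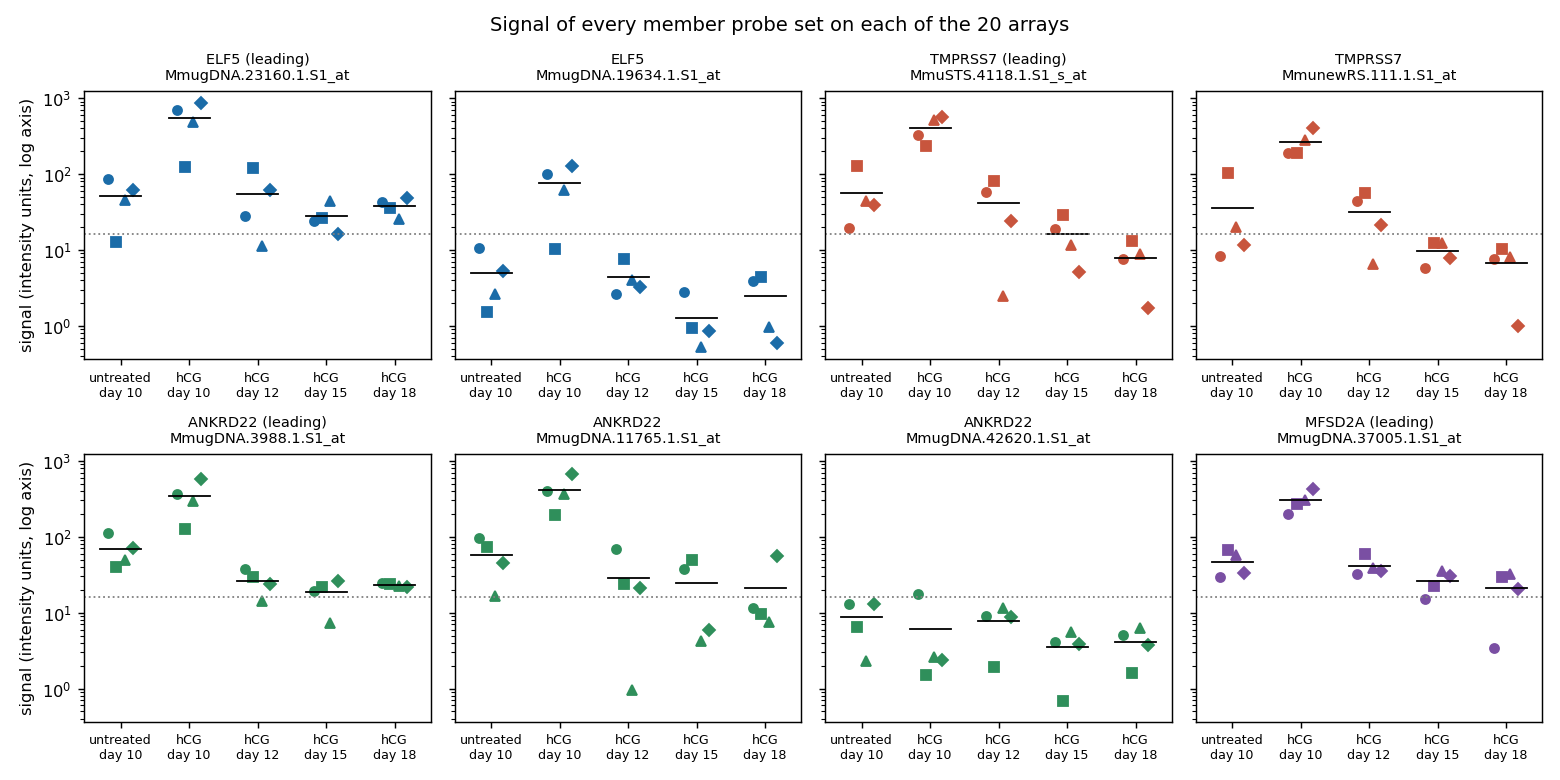
Signal in linear intensity units, on a log axis, of the 8 member probe sets on each of the 20 arrays. Each point is 1 array, with the circle, square, triangle and diamond for replicates 1 to 4, the black line is the group mean, and the dotted line marks a signal of 16. In 7 of the 8 panels hCG day 10 is the highest group, and its diamond, replicate 4, is the highest point, while ANKRD22 MmugDNA.42620.1.S1_at stays near or under 16.

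Set side by side, the genes shared the peak. In the leading probe sets, the hCG day 10 arrays lay above all untreated arrays for 4 of 4 genes, as they did for 3.42% of all probe sets, and hCG day 12 lay below hCG day 10 for 4 of 4, as it did for 2.68% of all probe sets. The hCG day 10 arrays were above all 16 other arrays in 6 of the 8 member probe sets and in 0.634% of all probe sets. These are the values the genes were selected on, and nothing is read from these counts.

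On the later days the overlap with the untreated arrays varied by gene, and a difference between the genes was not tested. In the leading probe sets all arrays were below all untreated arrays for 1 of 4 genes on hCG day 12 (3.56% of all probe sets), for 1 of 4 on hCG day 15 (4.56%) and for 2 of 4 on hCG day 18 (6.37%). That gene was ANKRD22 on all 3 days, joined by TMPRSS7 on hCG day 18. ELF5 and MFSD2A overlapped with the untreated arrays on every later day, as did the second responding probe sets of TMPRSS7 and ANKRD22. For ELF5 on hCG day 15 that overlap came from untreated replicate 2 alone, among the arrays that stood apart. All comparisons with untreated share the same 4 untreated arrays.

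A stricter reading of the pattern asks for a rise of at least 1 on the log2 scale on hCG day 10 and later differences from untreated of no more than 0.5 in size. It held for 95 probe sets and for none of the 4 leading ones. With later differences of up to 1 in size it held for 195 probe sets, among them ELF5 and MFSD2A. The mirror pattern, a fall on hCG day 10 with later values near untreated, held for 29 and 149 probe sets.

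**Figure D2:**
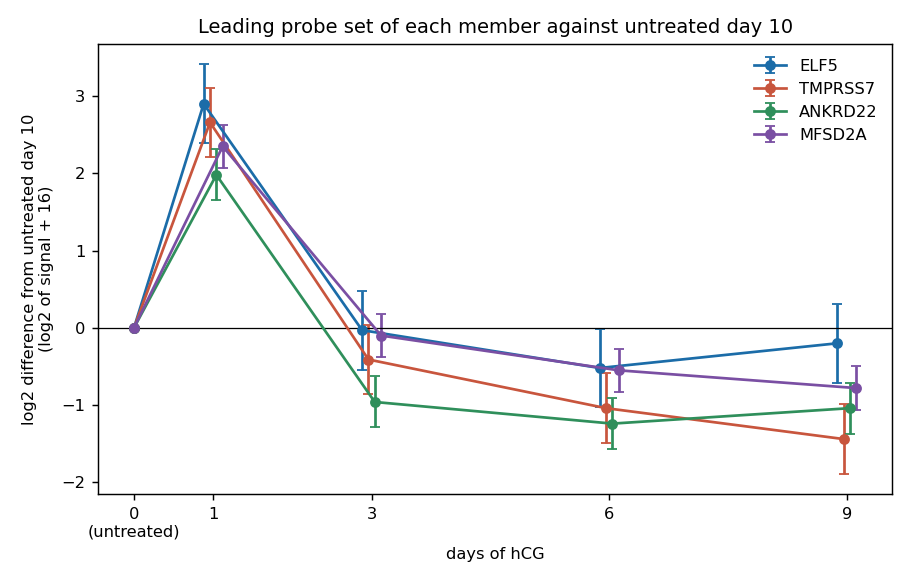
Log2 difference from untreated (log2 of signal + 16) of the leading probe set of each gene against the days of hCG, with the untreated group at 0 days. Points are differences of group means over 4 arrays each and bars are SE; lines only join the points. All 4 genes peak at 1 day, between 1.98 and 2.90, and at 9 days TMPRSS7 (-1.44) and ANKRD22 (-1.04) lie lower than ELF5 (-0.20) and MFSD2A (-0.78).

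The size of the peak varied between the 4 hCG day 10 arrays. Replicate 4 was the highest in all 7 responding probe sets. Replicate 2 was the lowest in the 6 responding probe sets of ELF5, TMPRSS7 and ANKRD22, whereas replicate 1 was the lowest for MFSD2A. Between the highest and the lowest array the leading signals differed 6.89-fold for ELF5, 4.58-fold for ANKRD22, 2.46-fold for TMPRSS7 and 2.14-fold for MFSD2A.

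Whether the genes varied together within groups is not what they were chosen on. Each array's deviation from its group mean was compared between genes over 20 arrays, in 6 pairs, with two-sided permutation tests within groups. ELF5 and ANKRD22 had the highest correlation, with Pearson's r = 0.68 (permutation p = 0.022, adjusted p = 0.13 over the 6 pairs) and Spearman's rho = 0.39 (permutation p = 0.16, adjusted p = 0.47), and their deviations had the same sign on 11 of 20 arrays. The arrays farthest from the median of ELF5 were hCG day 10 replicate 2 and hCG day 12 replicate 3. Without them r was 0.43 (permutation p = 0.18). It was 0.44 without hCG day 10 replicate 2 alone, so the relation leans mainly on that array. With a constant of 64 in place of 16 it passed (r = 0.82, permutation adjusted p = 0.035), and it also passed without hCG day 12 replicate 1 (r = 0.74, permutation adjusted p = 0.049) or without hCG day 15 replicate 3 (r = 0.79, permutation adjusted p = 0.034).

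TMPRSS7 and MFSD2A followed, with r = 0.37 (permutation p = 0.098, adjusted p = 0.29), rho = 0.43 (permutation p = 0.085, adjusted p = 0.47) and r = 0.34 without the 2 arrays farthest from the median of TMPRSS7. Their deviations had the same sign on 12 of 20 arrays. ELF5 and TMPRSS7 had r = 0.23 (permutation p = 0.46, adjusted p = 0.69) and rho = 0.06 (permutation p = 0.85), and r = -0.23 without the 2 arrays. TMPRSS7 and ANKRD22 had r = 0.21 (permutation p = 0.44, adjusted p = 0.69), rho = 0.20 (permutation p = 0.48) and r = 0.29 without the 2 arrays.

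For MFSD2A with ELF5 and with ANKRD22 no direction can be read, since the sign turned with the setting, and neither passed. With ELF5 it had r = -0.03 (permutation p = 0.92, adjusted p = 0.92), rho = -0.05 (permutation p = 0.85) and r = -0.10 without the 2 arrays. With ANKRD22 it had r = -0.12 (permutation p = 0.66, adjusted p = 0.79), rho = -0.24 (permutation p = 0.35) and r = -0.48 without hCG day 10 replicates 2 and 4 (permutation p = 0.036, adjusted p = 0.22). With the replicate number as a block the values were 0.26 with ELF5 and 0.49 with ANKRD22, and with a constant of 64 they were 0.09 and 0.07. No pair of the 6 passed after adjustment with a constant of 16 and all 20 arrays.

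**Figure D3:**
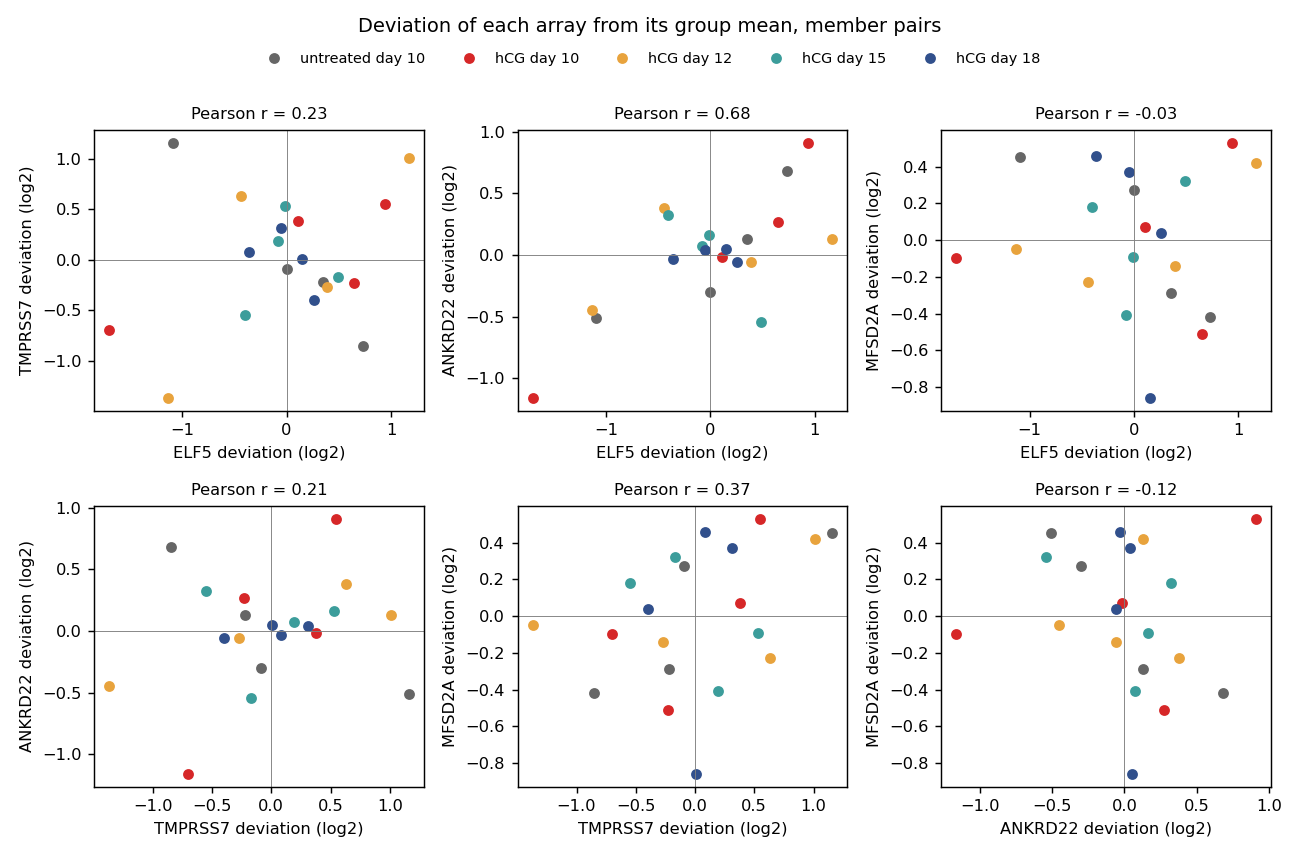
Deviation of each array from its group mean (log2 of signal + 16) for the 6 pairs of leading probe sets, 1 gene on each axis. Points are the 20 arrays, coloured by group. ELF5 and ANKRD22 have the highest Pearson's r, 0.68, with 1 hCG day 10 array at the lower left end, and ELF5 and MFSD2A have the one nearest 0, -0.03.

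Probe sets of the same gene were compared in the same way, a comparison added after seeing the data (5 pairs, the same permutation test). The 2 TMPRSS7 probe sets had r = 0.90 (permutation p = 4e-05, adjusted p = 0.0002) and rho = 0.90, and r = 0.87 without the 2 arrays farthest from the median. Both were under 16 on all 4 arrays of hCG day 18, and the second also on all 4 of hCG day 15. The order of such dim arrays is not reliable, which limits these values. The 2 ELF5 probe sets had r = 0.76 over 20 arrays and 0.58 over the 16 arrays outside hCG day 10, but the dimmer one was under 16 on all of these 16 arrays, so the value is a description only. The 2 responding ANKRD22 probe sets had r = 0.59 (permutation p = 0.0075, adjusted p = 0.012), rho = 0.58 and r = 0.51 without the 2 arrays. The dim ANKRD22 probe set MmugDNA.42620.1.S1_at had r = 0.22 (permutation p = 0.56) with the leading one and r = 0.04 (permutation p = 0.88) with the other.

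The deviations were also set against the median signal of each array and against the log2 difference between the 3' and 5' probe sets of GAPDH, a sign of RNA quality, in 8 relations. ELF5 had r = 0.64 with the array median (permutation p = 0.017, adjusted p = 0.14), rho = 0.61 and r = 0.56 without the 2 arrays farthest from the median of the array medians. TMPRSS7 and ANKRD22 had r = 0.47 and 0.41 (permutation adjusted p = 0.31 for both) and MFSD2A had r = -0.09 (permutation adjusted p = 0.90). No relation with the GAPDH measure passed, with permutation adjusted p from 0.31 to 0.98. The part of the array median in the variation of ELF5 was not tested beyond this relation.

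Over all 20 arrays, where the shared peak is part of the value, the leading probe sets correlated at r = 0.92 for TMPRSS7 and MFSD2A, 0.90 for ELF5 and ANKRD22, 0.87 for TMPRSS7 and ANKRD22, 0.85 for ANKRD22 and MFSD2A, 0.82 for ELF5 and TMPRSS7 and 0.81 for ELF5 and MFSD2A. For each gene the 5 most alike genes by this measure were taken from 15570 probe sets with 1 symbol and a mean signal of at least 50 on hCG day 10. These correlations are descriptions, and the arrays share their groups. A rise on hCG day 10 in these genes follows from how they were picked.

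The genes most like ELF5 were PRKX, a protein kinase of the cyclic AMP-dependent family (r = 0.933), BAIAP2L1, a regulator of the actin cytoskeleton (0.921), MORF4L2, a chromatin protein (0.918), ANKRD22 itself (0.902) and ZFAND5, a zinc finger protein (0.900). PRKX had mean signals of 257 untreated, 978 on hCG day 10 and 232, 175 and 205 on hCG days 12, 15 and 18. Its log2 difference on hCG day 10 was 1.86, and those of BAIAP2L1, MORF4L2 and ZFAND5 were 0.97, 0.56 and 0.82.

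The genes most like TMPRSS7 were RNF14, a ubiquitin ligase (0.938), DCAF10, a receptor subunit of ubiquitin ligases (0.916), MOCOS, the sulfurase of the molybdenum cofactor (0.916), MFSD2A (0.916) and LOC695959 (0.916). MOCOS had mean signals of 489 untreated, 1510 on hCG day 10 and 564, 437 and 266 on the later days. RNF14 and DCAF10 had smaller differences on hCG day 10, of 0.64 and 0.44.

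The genes most like ANKRD22 were ACOT6, an acyl-CoA thioesterase (0.947), ARNTL, a transcription factor of the circadian clock (0.944), KCNG3, a potassium channel subunit (0.943), NIPA2, a magnesium transporter (0.928) and the dimmer ELF5 probe set (0.928). That ELF5 probe set was under 16 on every array outside hCG day 10, so its value mainly describes the shared peak. Mean signals of ARNTL were 268 untreated, 446 on hCG day 10 and 165, 125 and 139 on the later days, with differences from untreated of 0.73, -0.61, -0.95 and -0.84. All 3 later means were below untreated, as they were for most of the genes most like the members. KCNG3 went from 42.3 untreated to 157 on hCG day 10 and then to 22.8, 18.6 and 26.9.

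The genes most like MFSD2A were LOC695959 (0.957), MYH7B, a myosin heavy chain (0.952), TP53RK, a protein kinase (0.941), the second TMPRSS7 probe set (0.936) and RNF14 (0.931). LOC695959 had a peak of the size of the members, with mean signals of 102 untreated, 723 on hCG day 10 and 81.9, 60.8 and 58.6 on the later days, and a difference of 2.50 on hCG day 10. MYH7B and TP53RK had differences of 1.00 and 0.95.

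**Figure D4:**
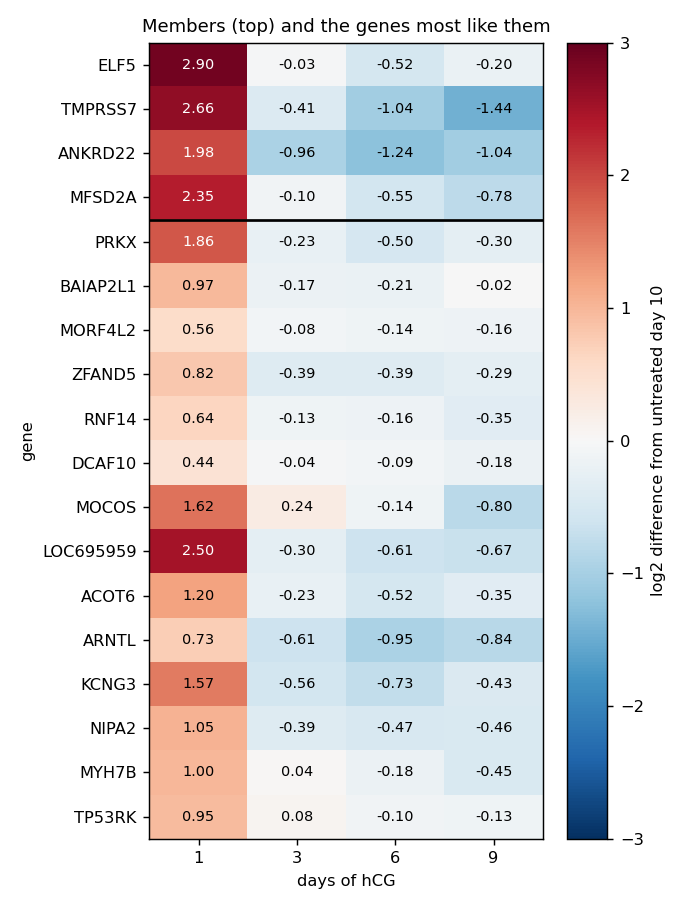
Log2 difference from untreated (log2 of signal + 16) on the 4 hCG collection days (1, 3, 6 or 9 days of injections) for the leading probe set of the 4 genes (above the line) and for the 14 other genes most like them. Red is higher and blue lower than untreated, and each cell gives its value, a difference of means over 4 arrays. The column for 1 day is positive in every row, from 0.44 for DCAF10 to 2.90 for ELF5. That sign follows from how the rows were picked, by the peak or by likeness to genes with it. Most rows are below untreated at 3, 6 and 9 days, with ANKRD22 at -0.96, -1.24 and -1.04.

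The families and pathways around each gene were read from lists, with 1 leading probe set per gene. Over all 14132 genes, 1.12% were called higher and 0.425% lower on hCG day 10 against untreated (limma, Benjamini-Hochberg adjusted p under 0.05), and 0.120% higher and 0.601% lower on hCG day 12 against hCG day 10. The median log2 difference over all genes was -0.01 and 0.00. The 4 genes' own place among these calls is set by how they were chosen and is not counted.

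No relative of ELF5 in the list passed the test. None of the 22 measured ETS factors of 26 was called on hCG day 10 (median -0.10, with 1 higher at an unadjusted p under 0.05 and none lower in limma's test), and none on hCG day 12 against hCG day 10 (none higher and 1 lower at an unadjusted p under 0.05). Their differences on hCG day 10 ran from -0.70 for ETS1 to 0.46 for SPDEF. EHF, the ETS factor next to ELF5 in the genome, had mean signals of 5.11 untreated and 8.34 on hCG day 10, both dim.

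Of the prolactin receptor and STAT5 genes 15 of 17 were measured and none was called by its leading probe set in either comparison (median 0.18 on hCG day 10; at an unadjusted p under 0.05 there were 3 higher and 1 lower on hCG day 10, and none higher and 1 lower in the step to hCG day 12). PRLR, the receptor itself, had mean signals of 518 untreated and 464 on hCG day 10. When any probe set of a gene was allowed, STAT5B, a signal transducer of that receptor, was called higher (0.55 ± 0.13, adjusted p = 0.044 in limma), and 1.34% of all genes were called higher by that looser rule. The call was lost without 1 array in 14 of 20 cases (adjusted p up to 0.15), among them each of the 4 untreated arrays, and the leading STAT5B probe set had 0.39 ± 0.17 (adjusted p = 0.36). Its probe set read from 58.5 to 66.2 untreated and from 81.7 to 109 on hCG day 10, with no overlap. Of the trophoblast and mammary partners of ELF5, 10 of 11 were measured and none was called in either comparison (median 0.05 on hCG day 10; at an unadjusted p under 0.05 there were 1 higher and 1 lower, and then 1 higher and none lower).

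The protease relatives of TMPRSS7 did not pass the test either. None of the 17 measured type II transmembrane serine proteases and inhibitors of 21 was called on hCG day 10 (median -0.04; 1 higher and none lower at an unadjusted p under 0.05) or on hCG day 12 against hCG day 10 (median -0.03; none higher and 1 lower at an unadjusted p under 0.05). Their differences on hCG day 10 ran from -0.42 for TMPRSS13 to 0.66 for TMPRSS11E.

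The interferon-inducible genes of myeloid cells, among which ANKRD22 is known in blood, had mostly negative differences. Of these, 17 of 22 were measured, and on hCG day 10 15 lay below 0 and 2 above, with a median of -0.52 against -0.01 over all genes. None passed the test (6 lower and none higher at an unadjusted p under 0.05 in limma), so the values are given as they are. The lowest was GBP1, an interferon-induced GTPase, at -1.85 ± 0.74 (adjusted p = 0.30 in limma), and the highest was AIM2 at 0.34. The untreated arrays of GBP1 were uneven, with a mean of 2290 ± 2610 (SD) against 322 ± 126 on hCG day 10. How far the list's median leans on single untreated arrays was not tested. On hCG day 12 against hCG day 10 the list's median was 0.21 and none was called (none higher and 1 lower at an unadjusted p under 0.05). Of 30 ankyrin repeat domain genes 21 were measured and none was called on hCG day 10 (median -0.08; 3 lower at an unadjusted p under 0.05) or in the step to hCG day 12 (2 higher and none lower at that level).

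Single genes of lipid handling rose on hCG day 10 beside MFSD2A. Of the fatty acid and lysophospholipid genes 22 of 31 were measured, and on hCG day 10 1 rose, none fell and 21 did not pass (median 0.06). The one that rose was ACSL1, which activates long-chain fatty acids to acyl-CoA. It read from 738 to 1130 on the untreated arrays and from 2320 to 2980 on the hCG day 10 arrays, higher in 4 of 4 arrays, with a log2 difference of 1.47 ± 0.19 (adjusted p = 0.00055 in limma). Unlike MFSD2A, it was still above untreated on hCG day 18, with a mean of 1650 against 976 (0.77 ± 0.19, adjusted p = 0.025).

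Of the fasting and PPAR response genes 15 of 22 were measured, and on hCG day 10 1 rose, none fell and 14 did not pass (median 0.05). It was ANGPTL4, a secreted inhibitor of lipoprotein lipase that, like MFSD2A in liver, is induced by fasting. It read from 1180 to 1700 untreated and from 2890 to 4620 on hCG day 10, higher in 4 of 4 arrays (1.30 ± 0.23, adjusted p = 0.0079 in limma), and its mean on hCG day 18 was 4500 (1.57 ± 0.23 against untreated, adjusted p = 0.00048). None of the 11 measured other MFSD carriers of 15 was called on hCG day 10 (median 0.14; 1 higher at an unadjusted p under 0.05). No gene of these 3 lists was called on hCG day 12 against hCG day 10, where 2 fatty acid, 1 fasting and no MFSD genes were higher and 1, 3 and 1 lower at an unadjusted p under 0.05.

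In the list of early genes of LH and cyclic AMP signalling, 25 of 32 were measured. On hCG day 10 2 rose, 1 fell and 22 did not pass (median -0.18). FST, the activin-binding protein follistatin, read from 119 to 597 untreated and from 1210 to 2150 on hCG day 10 (2.23 ± 0.35, adjusted p = 0.0028 in limma). CEBPA, a transcription factor, read from 379 to 502 and from 1130 to 2610 (1.76 ± 0.26, adjusted p = 0.0020). BTC, the EGF receptor ligand betacellulin, fell from 368 to 509 down to 150 to 201 (-1.24 ± 0.24, adjusted p = 0.013), a call that was lost without untreated replicate 4 or without hCG day 10 replicate 3 (adjusted p up to 0.057). None of the 3 was called on hCG day 12 against hCG day 10, where the whole list had no call (3 higher and 7 lower at an unadjusted p under 0.05). Against untreated, CEBPA stayed called higher on hCG days 12, 15 and 18 (1.86, 2.13 and 1.95, SE 0.26 each). BTC stayed called lower on these days (-1.46, -1.15 and -0.95, SE 0.24 each). FST had a mean of 532 on hCG day 18, against 1550 on hCG day 10.

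**Figure D5:**
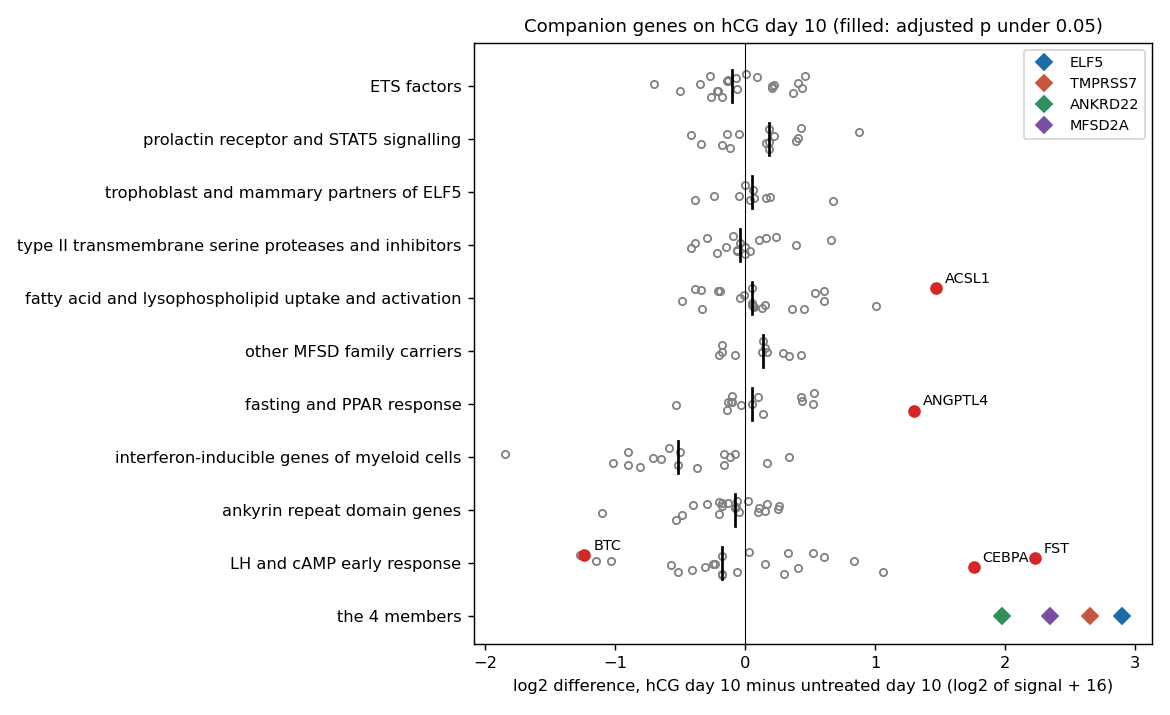
Log2 difference of hCG day 10 from untreated (log2 of signal + 16) for each measured gene of the 10 lists, with the 4 chosen genes as diamonds in the bottom row. Open circles did not pass the test, filled circles did (limma, adjusted p under 0.05), and the black bar is the list's median; the height within a row has no meaning. In 7 lists no gene is filled, ACSL1, ANGPTL4, FST, CEBPA and BTC are, and the 4 chosen genes lie between 1.98 and 2.90.

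By hCG day 18 against hCG day 10, when 2.87% of all genes were called higher and 5.09% lower, more list genes had been called, and the genes named here were chosen after their values were seen. Among the early response genes 1 rose and 7 fell, among them FST (-1.51 ± 0.35, adjusted p = 0.014 in limma) and AREG, the EGF receptor ligand amphiregulin, from a mean of 7160 to 626 (-3.63 ± 0.45, adjusted p = 6.6e-05). Of the serine proteases and inhibitors SPINT2, an inhibitor of such proteases, rose from 1700 to 2770 (0.70 ± 0.13, adjusted p = 0.0038), and TMPRSS3 and TMPRSS11E fell, TMPRSS3 from 163 to 71.2 (-1.01 ± 0.21, adjusted p = 0.0065). In the fatty acid list 2 rose, SLC27A2 and ACSL6, and 2 fell, ACSL1 (-0.71 ± 0.19, adjusted p = 0.034) and PNPLA2. Macrophage markers moved with this comparison: of 8 measured of 9, 4 rose and none fell (median 1.08), and their summed signal was 7910 to 14400 on hCG day 18 against 4330 to 5600 on hCG day 10, with no overlap. Of 4 measured steroidogenic luteal markers 2 fell and none rose (median -0.54). Of 13 measured epithelial markers 1 fell and none rose (median 0.04), and no other marker list had a call in this comparison. The part of these markers in the changes of the lists was not tested. The ETS, prolactin receptor and trophoblast lists had no call in this comparison either (0, 1 and 2 genes higher and 1 gene lower in each at an unadjusted p under 0.05).

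Epithelial markers were read because ELF5 is known from epithelia. Of 18 markers 13 were measured, and none was called on hCG day 10 against untreated, with a median log2 difference of -0.02. Their summed signal, which bright markers dominate, was 2370 to 3570 on hCG day 10, above all other arrays. It was 2000 to 2310 untreated, 1160 to 2090 on hCG day 12, 1390 to 1900 on hCG day 15 and 1500 to 1950 on hCG day 18. Within hCG day 10 the sum read 2370, 3140, 3570 and 3090 for replicates 1 to 4, which was not the order of ELF5. Of these markers CLDN3, a tight junction protein, read 972, 2020, 2390 and 1690 on hCG day 10 and 828, 622, 1300 and 829 untreated, so that the groups overlapped (0.95 ± 0.28, adjusted p = 0.14 in limma). CLDN3 fell to 474, 585, 377 and 707 on hCG day 12 (-1.66 ± 0.28, adjusted p = 0.0079 in limma). It was the list's only call on hCG day 10 against untreated or in this step. Without CLDN3 the sum was 1120 to 1400 on hCG day 10 and 1010 to 1450 untreated, which overlapped. The defining markers EPCAM, CDH1 and KRT7 were under 16 on every array. Within hCG day 10 the highest CLDN3 array was replicate 3. KRT18, a keratin of simple epithelia that was not called, read 590, 410, 377 and 770. It was highest on replicate 4 and next on replicate 1, as ELF5 and ANKRD22 were, but lowest on replicate 3, where theirs was replicate 2. A relation of this marker, 1 of 13, with the members was not tested.

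Of the other marker lists, those of oviduct and mesothelial cells, endothelial cells, macrophages, lymphocytes, smooth muscle, fibroblasts and red blood cells had no call on hCG day 10 against untreated or on hCG day 12 against hCG day 10 (0 to 2 genes per list at an unadjusted p under 0.05). The 4 measured steroidogenic luteal markers of 8, with summed signals between 27700 and 45300 on every array, also had none (1 and 2 at that level). The part of the epithelial markers in the levels of the 4 genes was not tested.

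Of the 2 nearest named genes on each side of each member in the RefSeq gene order, 10 of 16 were measured, with differences on hCG day 10 from -0.24 to 1.01. One was called, ABTB2 near ELF5, which was higher, as were 1.12% of all genes. It read from 167 to 239 untreated and from 311 to 572 on hCG day 10 (1.01 ± 0.19, adjusted p = 0.011 in limma). The ABTB2 call was lost without hCG day 10 replicate 3. Its differences from untreated were 0.37, -0.06 and -0.07 (SE 0.19 each) on hCG days 12, 15 and 18. The direct neighbours of ELF5, EHF and CAT, were not called. STAMBPL1, next to ANKRD22, had means of 545 untreated, 561 on hCG day 10 and 285 on hCG day 12 (-0.94 ± 0.20 for the last step, adjusted p = 0.041 in limma). That call did not pass without 1 array in 14 of 20 cases (adjusted p up to 0.14), among them each of the 4 hCG day 10 arrays. Against untreated, STAMBPL1 was at -0.89 on hCG day 12, not called (adjusted p = 0.071 in limma). It was called lower on hCG day 15 (-0.92 ± 0.20, adjusted p = 0.027) and hCG day 18 (-1.07 ± 0.20, adjusted p = 0.0042). How far these later calls depend on single arrays was not tested.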

How the data were processed

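Biotin-labelled cRNA of 20 corpus luteum samples was hybridised to Affymetrix rhesus arrays. The deposited values are linear intensity signals, 1 for each probe set on each array, made with GCOS, per the submitters' processing notes (version and scaling target not given in the sources used here). Tested on the table, every array had a 2% trimmed mean of 200.01 to 200.02, so the authors scaled the arrays to a common level. Precision is limited by the number of arrays.

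Of 52865 probe sets, 158 controls were left out. Symbols came from the platform annotation (24956 probe sets with 1 symbol, 361 with several, 27390 with none). The log2 of the signal + 16 was fitted with a mean per group over all 20 arrays in limma 3.58.1 (R 4.3.3, eBayes), with Benjamini-Hochberg adjustment over 52707 probe sets. No filter on dim probe sets was used. The script was tested on simulated data. Correlations used 100000 permutations (Python 3.11.15), and figures matplotlib 3.10.9.

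The members and lists were chosen with earlier results of these data known. Named were all members, the 5 most alike genes of each, up to 4 called genes per list and direction (hCG day 10 against untreated, or hCG day 12 against hCG day 10), and the 2 nearest RefSeq genes on each side. The probe set, promoter and protein sequences were not used here.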

Additional observations from a re-analysis of the deposited data

Results flagged for a closer look

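In 40 groups of 4 arrays (8 member probe sets in 5 groups), 2 had an array far from the other three, with a gap over range above Dixon's 95% critical value; chance gives about 1 in 20. In ANKRD22 MmugDNA.11765.1.S1_at, hCG day 18 replicate 4 read 56.0, while the others read 7.57, 9.47 and 11.5 (gap over range 0.863). The leading ANKRD22 probe set read 21.5 on that array, the lowest of its group. In the dim ANKRD22 MmugDNA.42620.1.S1_at, hCG day 10 replicate 1 read 17.5, while the others read 1.49, 2.40 and 2.63 (gap over range 0.903).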

How the results depend on the processing

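The rise on hCG day 10 and the fall to hCG day 12 of the 4 genes kept their direction under quantile normalisation, median-centring, constants of 1 and 64, without the 3 arrays that stood apart, with the replicate number as a block and without any 1 array. The genes were chosen for this course in these same arrays, so the kept direction is no test of it. Only the sizes are of use here. Without 1 array the rise was 2.54 to 3.47 for ELF5, 2.38 to 3.04 for TMPRSS7, 1.68 to 2.36 for ANKRD22 and 2.17 to 2.52 for MFSD2A, and the fall -3.50 to -2.56, -3.41 to -2.61, -3.32 to -2.63 and -2.62 to -2.27. With a constant of 1 the fall was -3.93 for TMPRSS7 and -3.54 for ANKRD22. With 64 it was -2.17, -2.04 and, for MFSD2A, -1.77, and the rise of MFSD2A was 1.71. As the mean over its probe sets, 1 of them dim, ANKRD22 gave 1.44 and -2.05, and by MmugDNA.11765.1.S1_at, an alternative chosen after seeing the data, it rose by 2.55.

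Of all probe sets 503 were called on hCG day 10 against untreated and 273 on hCG day 12 against hCG day 10. The counts were 254 and 146 with a constant of 1, 172 and 56 in a fit of 8 arrays alone and 246 and 157 with at least a 2-fold change. Without the 3 arrays the first was 324, and without 1 array they were 228 to 577 and 151 to 286, lowest without hCG day 10 replicate 3 and hCG day 12 replicate 4. With any probe set per gene the prolactin receptor list had 1 call in place of 0, and with quantile normalisation the early response list had 2 lower genes in place of 1. The looser reading of the peak gave 195 probe sets, and of its mirror 149. Median-centring moves all differences on hCG day 10 up by 0.12, since the array medians were lower by that much (-0.12).

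Same-numbered arrays did not deviate together throughout: 1 of 4 pairs correlated above 0.1 between untreated and hCG day 10 (-0.01 to 0.25) and 1 of 4 between hCG days 10 and 12 (-0.08 to 0.36), and 1 of 4 arrays correlated best with its own number in each. With the replicate block the counts were 417 and 250. The correlation of ELF5 with MFSD2A turned to 0.26 with the block, to 0.09 with a constant of 64 and to 0.09 without the 3 arrays, and that of ANKRD22 with MFSD2A to 0.49, 0.07 and 0.02. That of ELF5 with ANKRD22 was 0.82 with a constant of 64. Without 1 array the 6 correlations were -0.02 to 0.54 (ELF5 and TMPRSS7), 0.44 to 0.79 (ELF5 and ANKRD22), -0.18 to 0.11 (ELF5 and MFSD2A), 0.01 to 0.43 (TMPRSS7 and ANKRD22), 0.26 to 0.47 (TMPRSS7 and MFSD2A) and -0.40 to 0.00 (ANKRD22 and MFSD2A). The calls of ACSL1, ANGPTL4, FST, CEBPA and CLDN3 passed in the 20 fits without 1 array. They also passed in the 6 settings tried for them after seeing the data. The STAMBPL1 call on hCG day 12 against hCG day 10 was lost in 4 of these 6 settings (-0.91 with median-centring, -0.98 with a constant of 1, -0.80 without the 3 arrays, -0.94 with the block). The STAT5B call was lost in 2 (0.65 with a constant of 1, 0.55 with the block). The cause of these shifts was not tested. Signals at or under 16 have no reliable order, which limits the later levels of TMPRSS7 and the dim probe sets.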
